A study of Mus musculus with 24 samples.

Results

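The genes described here build the DNA replication machinery, carry cells from G1 into S phase, or run mitosis. A list of 40 such genes was read by gene symbol, and 39 of them were measured among 19937 genes in all (Ccnb1 was not analysed here). Of the 39, 19 act in replication (licensing and helicase, DNA synthesis, nucleotide supply), 5 are G1/S regulators, and 15 are mitotic. Each gene was read from the probe set that names it alone and has the highest mean over the 24 arrays, and 37 of the 39 have 1 such probe set (Pcna and Top2a have several). All 39 entered the fit, since no filter on dim genes was used.

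The RNA came from primary mouse keratinocytes, the epithelial cells of the epidermis, from C57/BL6 mice that were either wild-type or null for Ppar-beta. Ppar-beta, encoded by Ppard, is a nuclear receptor that binds fatty acid ligands, and GW0742 is a synthetic ligand selective for it. Cells were grown for 2 days and then either mock transduced or given a retrovirus carrying activated Hras (48 h by the labels), a mutant form of a small GTPase that keeps growth factor signalling switched on. Each of these 4 kinds of culture then received 1 uM GW0742 or its solvent DMSO for 24 h, which makes 8 groups of 3 one-colour Affymetrix Mouse Gene 1.0 ST arrays. All 8 groups share strain, cell type and culture, and the sources used here give neither the null allele nor the viral promoter. They also do not say that the arrays of a group came from separate mice or cultures, so the p-values measure only how these arrays vary, and that may be technical variation.

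In each cycle, replication origins are licensed in G1 when Cdc6 and Cdt1 load the MCM helicase, and cyclin D and cyclin E kinases release E2F, which drives transcription of the replication genes. The helicase, with GINS, then unwinds DNA for the polymerases, their clamp and clamp loader, while ribonucleotide reductase and thymidylate synthase supply nucleotides. Mitotic genes are transcribed later, in G2, largely through MYB and FOXM1 complexes that act at short elements named CHR (cell cycle genes homology region). CCAAT boxes are a separate promoter element, not a site of those complexes. In epidermis, proliferation belongs to the basal layer and ends as cells differentiate.

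The promoters of all members with a window were searched for the letters of these elements, since replication and mitotic members are classically read by different factors. RefSeq windows on the GRCm38.p6 assembly, 300 bases each (250 before the start and 50 after it), matched 30 of the 39 members by symbol. On both strands, E2F letters (TTTGGCGC, TTTCGCGC or GGCGGGAA, which may overlap each other) stood in 9 of 15 replication windows (60.0%) and in 1 of 13 mitotic windows (7.69%), against 3.03% of the windows of 27025 genes. CHR letters (TTTGAA or TTCGAA) stood in 4 of 15 replication windows (26.7%) and in 10 of 13 mitotic windows (76.9%), against 19.4% of all. CCAAT stood in 10 replication windows (66.7%) and 11 mitotic windows (84.6%), against 37.9% of all. The 2 G1/S windows held none of these letters. Mcm4, Gins1, Gins2, Pole, Ccnd1, Ccnd2, Ccne2, Ccna2 and Aurkb are not in the table. Matches are descriptions of the letters, not evidence of binding. The windows of Cdt1 (chromosome 8, 122567765 to 122568064, plus strand) and Mcm6 (chromosome 1, 128359656 to 128359955, minus strand), the replication members with the widest range of group means among those with a match, are shown first. Those of Aurka (chromosome 2, 172370521 to 172370820, minus strand) and Cdk1 (chromosome 10, 69352863 to 69353162, minus strand) follow as mitotic members. Each runs 5′ to 3′ on the gene's strand, and capitals mark E2F letters in Cdt1 and Mcm6, CHR letters in Aurka, and E2F letters followed by 2 CHR matches in Cdk1.
Cdt1: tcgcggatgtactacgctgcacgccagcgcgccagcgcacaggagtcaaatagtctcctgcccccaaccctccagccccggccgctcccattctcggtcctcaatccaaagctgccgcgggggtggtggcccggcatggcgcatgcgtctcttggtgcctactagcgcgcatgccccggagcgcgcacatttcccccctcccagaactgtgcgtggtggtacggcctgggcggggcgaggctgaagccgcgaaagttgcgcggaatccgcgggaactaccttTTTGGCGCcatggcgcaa
Mcm6: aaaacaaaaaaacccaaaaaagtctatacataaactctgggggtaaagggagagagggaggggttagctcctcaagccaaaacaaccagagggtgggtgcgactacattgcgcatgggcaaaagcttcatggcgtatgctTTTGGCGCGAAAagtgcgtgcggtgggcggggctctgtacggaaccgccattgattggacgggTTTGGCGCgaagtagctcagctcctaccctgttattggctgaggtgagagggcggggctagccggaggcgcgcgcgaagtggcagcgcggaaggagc
Aurka: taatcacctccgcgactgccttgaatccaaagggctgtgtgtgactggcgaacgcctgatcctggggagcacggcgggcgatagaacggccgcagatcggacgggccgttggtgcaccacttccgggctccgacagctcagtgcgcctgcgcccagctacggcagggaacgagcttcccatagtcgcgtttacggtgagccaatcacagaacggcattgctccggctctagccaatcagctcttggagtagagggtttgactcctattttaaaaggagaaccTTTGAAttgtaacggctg
Cdk1: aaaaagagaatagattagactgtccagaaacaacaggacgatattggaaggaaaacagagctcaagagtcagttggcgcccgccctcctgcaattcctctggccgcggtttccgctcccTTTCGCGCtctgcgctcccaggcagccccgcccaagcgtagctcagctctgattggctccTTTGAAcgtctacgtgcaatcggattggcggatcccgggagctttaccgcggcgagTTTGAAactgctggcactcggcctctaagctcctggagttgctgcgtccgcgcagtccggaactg
In Mcm6, 2 of the 3 E2F matches overlap in 1 run of capitals, 110 and 106 bases before the start, and the other lies 47 bases before it. The Cdt1 match begins 33 bases after the start. In Cdk1 the E2F match lies 131 bases before the start and the CHR matches 71 and 15 bases before it, and the single CHR match of Aurka begins 33 bases after the start.

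All values are log2 intensities as the authors deposited them, so a difference of 1 is a doubling. The arrays share 1 distribution (medians 7.46 to 7.53), and the median SD over all genes was 0.122 in null Hras cells with GW0742, against 0.0647 to 0.0798 in the other 7 groups. The Ppard signal itself differed between null and wild-type by -0.57 ± 0.06 in mock cells and -0.28 ± 0.06 in Hras cells, both with DMSO. Whether its probes lie in the deleted part is not known, so this is no full check of genotype. Pdk4, a classical target of the receptor, rose with GW0742 by 4.14 ± 0.08 in wild-type mock cells and by 5.83 ± 0.08 in wild-type Hras cells, against 0.16 (not passing) and 0.29 in null cells. Basal keratinocyte markers (7 genes) averaged 12.42 to 12.43 in wild-type mock and 12.06 to 12.12 in wild-type Hras arrays with DMSO. The mean of 7 fibroblast markers was 8.88 to 8.94 in wild-type mock and 8.30 to 8.34 in null mock arrays with DMSO. It was 7.63 to 7.74 and 7.85 to 8.05 in the Hras arrays with DMSO. The mean of 7 melanocyte markers ran from 10.29 to 10.39 in wild-type mock to 9.23 to 9.40 in wild-type Hras arrays, both with DMSO. In null Hras arrays with GW0742 it was 9.56 to 9.81. Markers of differentiating keratinocytes (7 genes) were 12.31 to 12.38 in wild-type mock and 9.69 to 10.01 in wild-type Hras arrays, both with DMSO. Leukocyte markers (6 genes) stayed between 6.27 and 6.63 in every array and endothelial markers (3 genes) between 6.53 and 7.24.

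Null mock cells had the lowest replication and mitotic levels, with and without ligand, and the Hras groups with DMSO had the highest mitotic levels. The mean of the 19 replication members, each relative to its own 24-array mean, was 0.04, -0.01 and 0.00 in wild-type mock DMSO arrays and -0.24, -0.37 and -0.24 in null mock DMSO arrays. In Hras cells with DMSO it was 0.08, 0.11 and 0.19 in wild-type and 0.18, 0.12 and 0.06 in null arrays. The replication level of null cells was therefore the lowest of the 4 DMSO groups without Hras and near the wild-type level with it. The mean of the 15 mitotic members was -0.03, -0.11 and -0.10 in wild-type mock, -0.21, -0.32 and -0.34 in null mock, 0.23, 0.25 and 0.35 in wild-type Hras and 0.25, 0.20 and 0.16 in null Hras arrays, all with DMSO. Mitotic members were thus higher in every Hras DMSO array than in every mock DMSO array, in both genotypes, and the replication level of wild-type cells rose by a smaller margin (0.04 at most in mock and 0.08 at least in Hras arrays). In bulk RNA, fewer cycling cells and less RNA in each of them cannot be told apart.

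**Figure D1:**
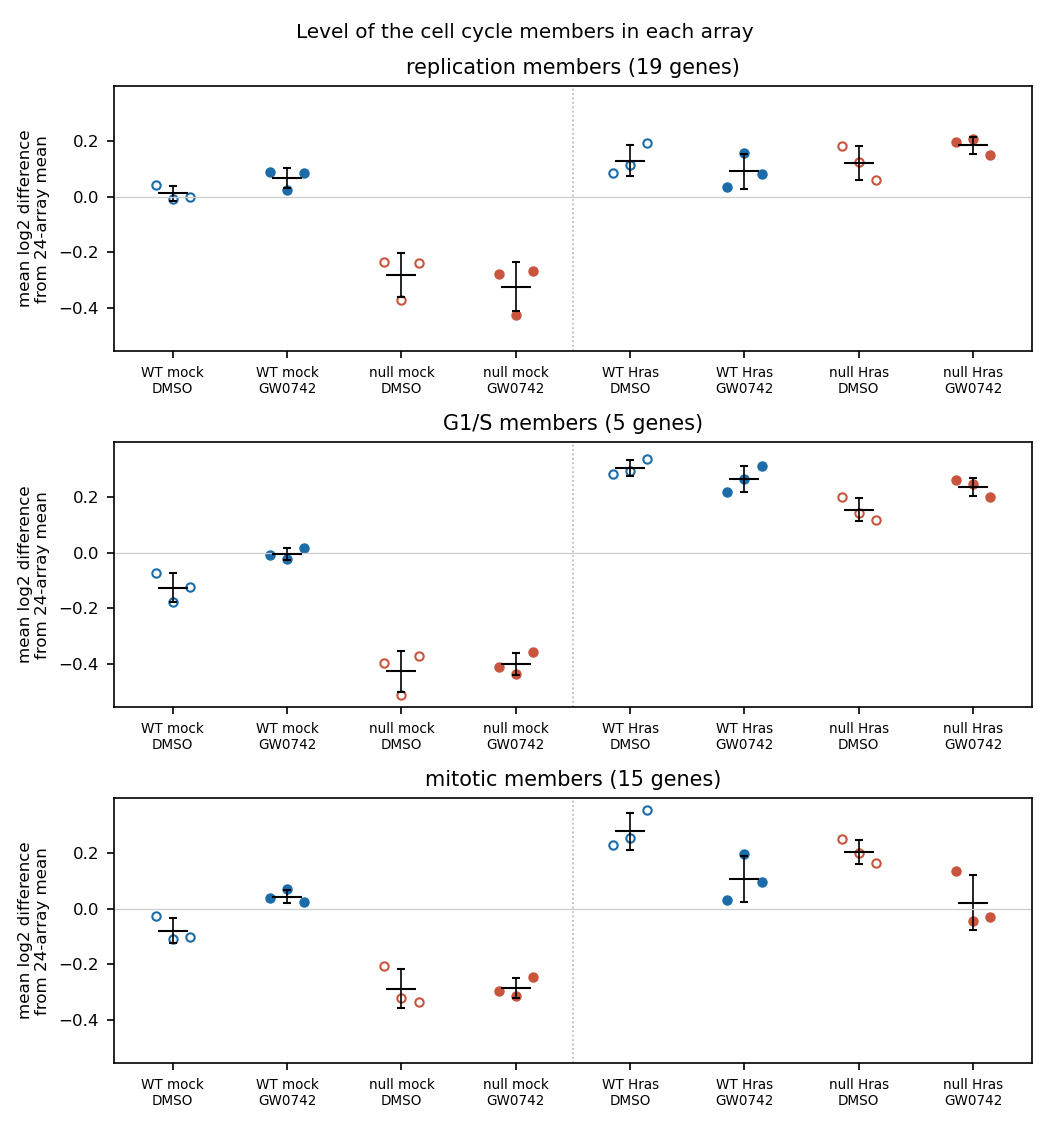
Mean level of the replication, G1/S and mitotic members in each of the 24 arrays, relative to each gene's 24-array mean (log2, vertical axis), by group (horizontal axis), with points for arrays, horizontal lines for group means and error bars for the SD (n = 3). Null mock arrays sit lowest in all 3 sets, and mitotic members are highest in wild-type Hras arrays with DMSO (group mean 0.28).

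**Figure D2:**
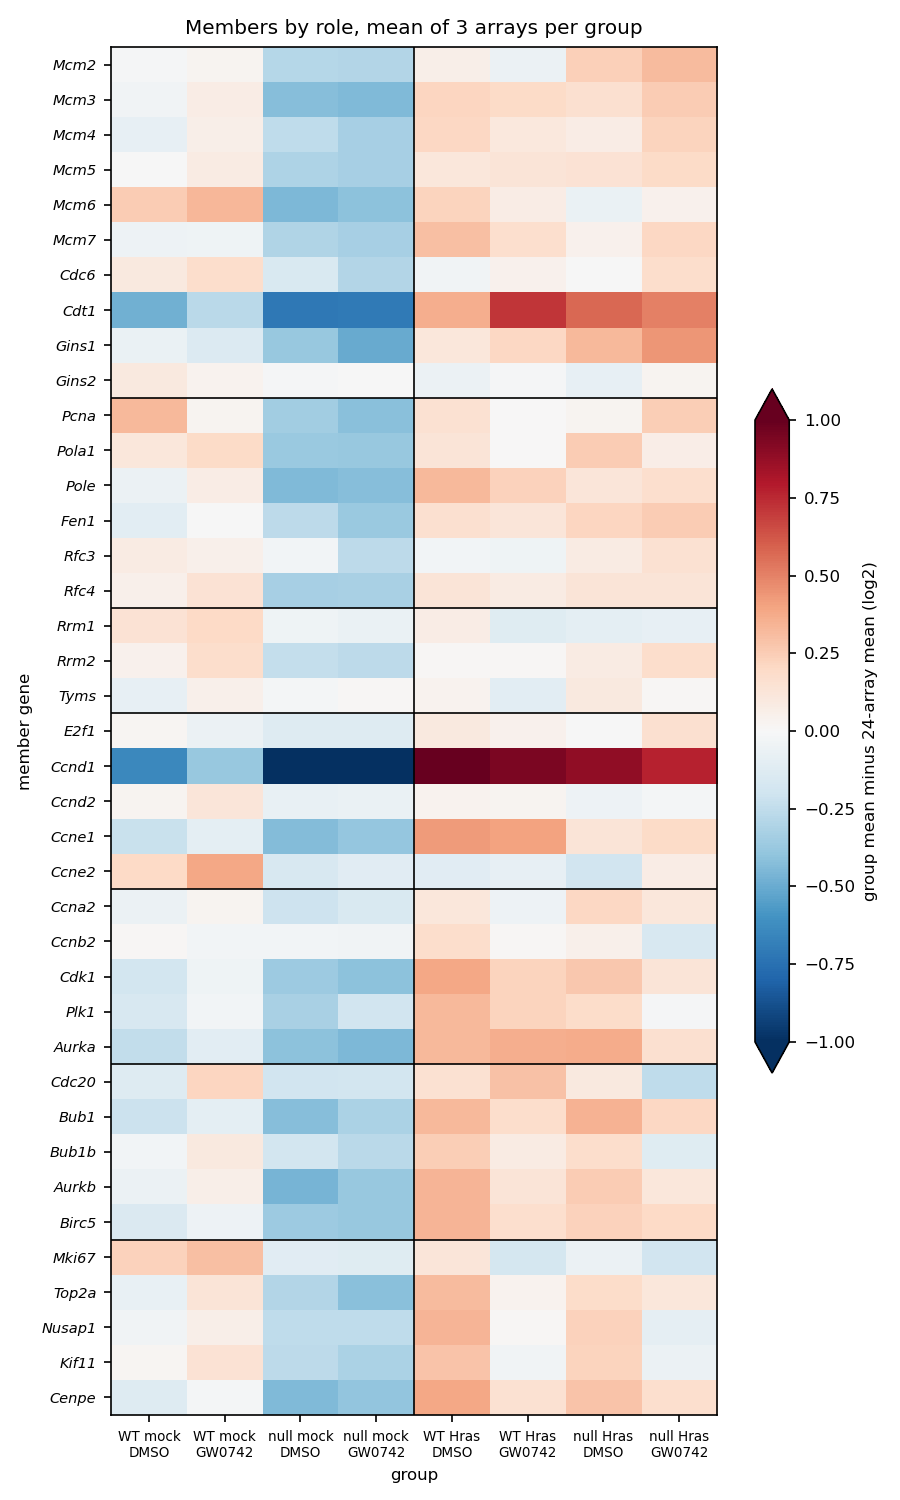
Group mean of each of the 39 members (rows, ordered by role) relative to its 24-array mean (log2, colour, limited to between -1 and 1) in the 8 groups (columns). The null mock columns are low for most members, and Ccnd1 has the widest range.

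Loss of Ppar-beta went with lower expression of the cell cycle programme in cells without Hras. With DMSO, 22 of 39 members were lower in null than in wild-type mock cells and none was higher, where 5.53% of all genes were lower and 4.89% higher. With GW0742 it was 32 lower and none higher, where 10.9% of all genes were lower and 11.1% higher. All 22 genes lower with DMSO were also lower with GW0742 (68.8% of the 32), on arrays that the comparisons do not share. The sources do not say whether the 2 treatments were given to parts of the same cultures, so this overlap may not be independent. Replicate 2 had the lowest replication level in every mock group, while the replicate with the lowest mitotic level differed between treatments. The median change of the replication members was -0.27 with DMSO and -0.41 with GW0742, and that of the mitotic members -0.21 and -0.36, where all genes had medians of 0.03 and 0.03. In the same null mock arrays 6 of 7 fibroblast and 4 of 7 melanocyte markers were lower with DMSO (5 and 1 with GW0742). Of the 7 differentiation markers 1 was higher and 2 lower under either treatment, of the 7 basal markers 1 and 2 were higher, and of the 3 endothelial markers 1 was lower under either. The part of these markers in the result was not tested. Without wild-type replicate 1 the DMSO count fell from 22 to 12, without null replicate 2 to 12 and without null replicate 3 to 13.

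Of the licensing genes, the helicase subunits were the most uniform: Mcm2 to Mcm7, the 6 subunits of the ring that unwinds DNA, were all lower in null mock cells with either treatment. Mcm6 differed most, at 9.89, 9.79 and 9.81 in wild-type and 9.21, 9.11 and 9.07 in null mock arrays with DMSO. With GW0742 its values were 9.95, 9.89 and 9.89 in wild-type against 9.27, 9.10 and 9.12. The genotypes did not overlap under either treatment, and the change was -0.70 ± 0.07 with DMSO (adjusted p = 3.75e-07) and -0.75 ± 0.07 with GW0742 (adjusted p = 7.64e-08). The other 5 subunits changed by -0.17 (Mcm4) to -0.39 (Mcm3) with DMSO. The DMSO calls of Mcm2, Mcm4 and Mcm7 did not hold in every alternative. Without null mock DMSO replicate 3 their adjusted p was 0.0985, 0.166 and 0.0652. Cdc6, a loader of the helicase, was lower, with a difference of -0.25 ± 0.06 and -0.47 ± 0.06, and Gins1, a subunit of the active helicase, of -0.31 ± 0.10 and -0.37 ± 0.10. Cdt1, the other loader, passed only with GW0742 (-0.23 ± 0.11 with DMSO and -0.43 ± 0.11 with GW0742). Gins2, a partner of Gins1, passed in neither, with 9.30, 9.41 and 9.43 in wild-type and 9.26, 9.20 and 9.36 in null mock DMSO arrays, which overlap.

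Among the synthesis genes, Pola1 (catalytic subunit of the polymerase that starts each new strand) was lower, with a difference of -0.48 ± 0.10 with DMSO and -0.57 ± 0.10 with GW0742. Pole, the catalytic subunit of the leading strand polymerase, read 9.71, 9.70 and 9.72 in wild-type and 9.41, 9.32 and 9.25 in null mock arrays with DMSO. The genotypes did not overlap, and the change was -0.38 ± 0.06 (adjusted p = 0.000181). The clamp loader subunit Rfc4 was lower under both treatments (-0.38 ± 0.08 and -0.47 ± 0.08), whereas its partner Rfc3 passed only with GW0742. Rfc3 read 9.24, 9.24 and 9.10 in wild-type and 9.15, 9.06 and 9.03 in null arrays with DMSO, and 9.16, 9.17 and 9.16 against 8.92, 8.82 and 8.82 with GW0742. The DMSO groups touched and the GW0742 groups did not, with changes of -0.11 ± 0.07 and -0.31 ± 0.07. Fen1, the nuclease that trims lagging strand fragments, also passed only with GW0742 (-0.37 ± 0.08). Pcna, the sliding clamp, passed in no comparison, and its arrays spread widely: 12.47, 12.37 and 12.20 in wild-type and 11.51, 11.03 and 12.48 in null mock DMSO arrays. These values are from the brighter of its 2 probe sets, so whether the spread is that of the gene is not known.

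Both ribonucleotide reductase subunits were lower in null mock cells. Rrm2, the subunit made in S phase, read 11.56, 11.48 and 11.58 in wild-type and 11.25, 11.30 and 11.24 in null arrays with DMSO, and 11.75, 11.62 and 11.66 against 11.23, 11.24 and 11.24 with GW0742. Null arrays were below every wild-type array under both treatments, with differences of -0.28 ± 0.06 and -0.44 ± 0.06. Rrm1, the large subunit, was lower, with a difference of -0.19 ± 0.06 and -0.26 ± 0.06. Tyms, which makes thymidylate, did not follow them: its arrays were 10.09, 9.97 and 9.87 in wild-type and 10.10, 10.05 and 9.97 in null mock cells with DMSO. These overlap, and the difference was 0.06 ± 0.08 (95% interval -0.11 to 0.23).

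Ccnd1, cyclin D1, which links growth signals to the G1 kinases, had one of the 2 largest genotype differences with DMSO among members that passed, beside Mcm6. It read 11.95, 11.67 and 11.97 in wild-type and 11.19, 11.02 and 11.31 in null mock arrays with DMSO, and 12.11, 12.11 and 12.16 against 11.19, 11.20 and 11.21 with GW0742. The groups were well apart, and null cells were lower, with a difference of -0.69 ± 0.08 (adjusted p = 5.7e-06) and -0.93 ± 0.08 (adjusted p = 5.35e-08). Ccnd2, another D cyclin, hardly moved: 13.55, 13.49 and 13.55 in wild-type against 13.41, 13.45 and 13.45 in null mock arrays with DMSO, a difference of -0.09 ± 0.04, and -0.19 ± 0.04 with GW0742, which passed. Ccne1 and Ccne2, the E cyclins that activate the S phase kinase, were both lower, at -0.21 ± 0.05 and -0.36 ± 0.11 with DMSO. E2f1, an activator E2F, passed under neither treatment (-0.15 ± 0.06 and -0.07 ± 0.06).

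Of the mitotic members, 6 of 15 were lower in null mock cells with DMSO and 12 with GW0742. The 6 were Cdk1 (the mitotic kinase), Aurkb (the kinase of the chromosomal passenger complex), Mki67 (a coat of mitotic chromosomes used as a proliferation marker), Top2a (which untangles DNA), Kif11 (a spindle motor) and Cenpe (a kinetochore motor). Aurkb read 10.68, 10.57 and 10.65 in wild-type and 10.36, 10.18 and 10.13 in null mock arrays with DMSO, without overlap, a change of -0.41 ± 0.06 (adjusted p = 9.46e-05). Mki67 read 11.26, 11.17 and 11.20 against 10.93, 10.85 and 10.81, again without overlap (-0.34 ± 0.07, adjusted p = 0.0027). Cenpe read 8.77, 8.83 and 8.61 against 8.59, 8.47 and 8.24, with 1 null array close to the lowest wild-type one (-0.31 ± 0.10, adjusted p = 0.0461). With GW0742, Ccna2, Aurka, Cdc20, Bub1b, Birc5 and Nusap1 also passed, and 3 members (Ccnb2, Plk1 and Bub1) passed under neither treatment. Ccnb2, a B cyclin, had a GW0742 difference of 0.00 ± 0.07. The Top2a difference with DMSO (-0.22 ± 0.07) became 0.01 when its 2 probe sets were averaged, so the probe set not read here differed the other way.

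**Figure D3:**
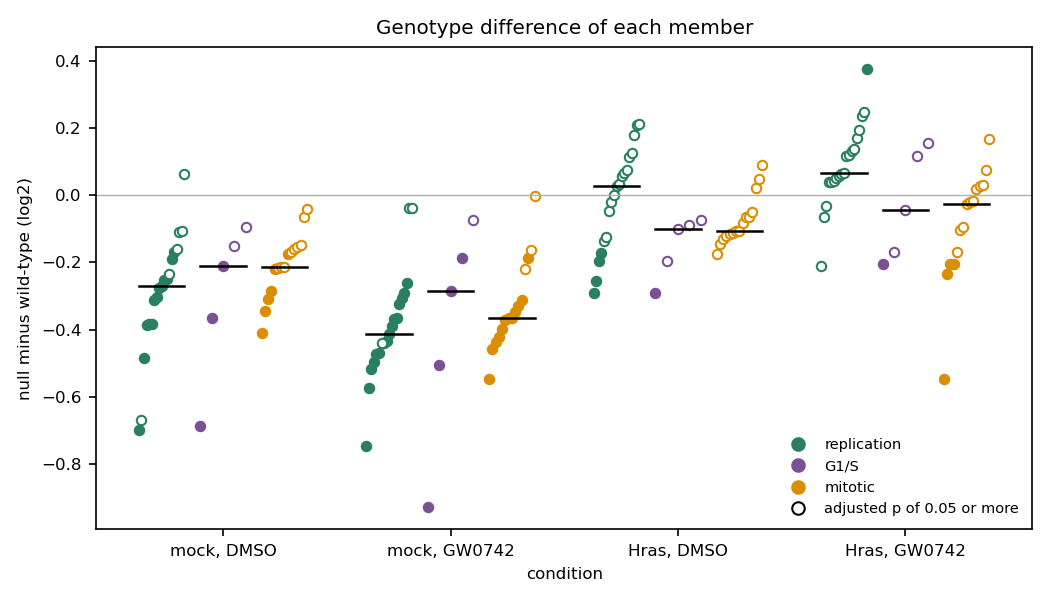
Null minus wild-type difference (log2, vertical axis) of each of the 39 members, as points in order of size by set, in mock and Hras cells with either treatment (horizontal axis), filled where the adjusted p was under 0.05, with horizontal lines for set medians. In mock cells all points but Tyms with DMSO lie below 0, whereas in Hras cells the points lie on both sides.

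In Hras cells fewer members differed between genotypes. With DMSO, 5 members were lower in null Hras than in wild-type Hras cells and none higher (9.32% of all genes were lower and 10.1% higher): Mcm6 (-0.29 ± 0.07), Mcm7 (-0.26 ± 0.06), Pole (-0.20 ± 0.06), Rrm1 (-0.17 ± 0.06) and Ccne1 (-0.29 ± 0.05). With GW0742, 5 were lower and 1 higher (11.2% of all genes were lower and 9.91% higher). The lower ones were Ccne1 and the mitotic members Cdc20, Bub1b, Aurka and Plk1, led by Cdc20 (-0.55 ± 0.07), and the higher one was Mcm2 (0.38 ± 0.07). As shares of the 39 members these counts are near those of all genes, and nothing is read from them. Without null replicate 1 and without null replicate 2, the DMSO count was 8 and 3, and the GW0742 count was 10 and 3.

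Hras raised most mitotic members in both genotypes, and more of the replication members in null than in wild-type cells. With DMSO, 21 of 39 members rose and 1 fell in wild-type cells (18.4% of all genes rose and 19% fell). In null cells 28 rose and none fell (20.2% of all genes rose and 20.5% fell), and they included all 21 of the wild-type risers (75% of the 28), on arrays that the comparisons do not share. Of the 15 mitotic members, 13 rose in each genotype, with medians of 0.39 in wild-type and 0.49 in null cells. Of the 19 replication members, 6 rose in wild-type and 13 in null cells, with medians of 0.08 and 0.38, where all genes had medians of 0.02 and 0.00. In the same comparison 7 of 7 fibroblast, 7 of 7 melanocyte and 5 of 7 differentiation markers fell in wild-type cells, and 4, 7 and 5 fell in null cells, where 1 fibroblast and 1 differentiation marker rose. Of the 7 basal keratinocyte markers, 4 fell in wild-type cells and 5 fell and 1 rose in null cells, with Trp63, a transcription factor of the basal layer, at -1.02 and -1.05. Of the 3 endothelial markers 2 rose in each genotype (Kdr, a growth factor receptor, by 0.40 and 0.95), and of the 6 leukocyte markers none passed in wild-type and 1 rose in null cells. The part of these markers in the result was not tested.

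The largest rise of any member was that of Ccnd1. Its arrays read 13.63, 13.58 and 13.56 in wild-type Hras cells with DMSO and 13.57, 13.36 and 13.26 in null Hras cells with DMSO, all above every mock array given above. The change was 1.73 ± 0.08 in wild-type (a 3.31-fold rise, adjusted p = 2.17e-13) and 2.22 ± 0.08 in null cells (4.66-fold, adjusted p = 3.28e-15). Ccne1 rose by 0.65 ± 0.05 and 0.57 ± 0.05. Ccne2 went the other way in wild-type cells, from 8.92, 8.75 and 8.66 in mock to 8.36, 8.41 and 8.61 in Hras arrays with DMSO. These ranges did not overlap, and the change was -0.32 ± 0.11 (adjusted p = 0.021). That call was lost with arrays centred (adjusted p = 0.0623) and without wild-type mock DMSO replicate 1 (0.119). It was also lost without wild-type Hras DMSO replicate 1 or 2 (0.0937 and 0.0698). In null cells Ccne2 read 8.55, 8.30 and 8.39 against 8.43, 8.33 and 8.39, close to the wild-type Hras arrays in both groups, with a difference of -0.03 ± 0.11. Ccnd2 was flat in both genotypes (0.01 ± 0.04 and 0.02 ± 0.04), at 13.52, 13.55 and 13.56 in wild-type Hras arrays and 13.48, 13.43 and 13.45 in null ones. E2f1 did not pass with DMSO (0.08 ± 0.06 and 0.13 ± 0.06).

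Among the licensing genes, Cdt1 rose most. With DMSO it read 9.51, 9.57 and 9.72 in wild-type mock and 10.29, 10.50 and 10.55 in wild-type Hras arrays, and 9.36, 9.16 and 9.60 against 10.60, 10.63 and 10.75 in the null ones. Every Hras array was above every mock array, and the rises were 0.84 ± 0.11 (adjusted p = 2.89e-06) and 1.29 ± 0.11 (adjusted p = 4.85e-09). Of the 6 MCM subunits, Mcm3, Mcm4 and Mcm7 rose in wild-type cells, by 0.35 at most (Mcm7), and all 6 rose in null cells, by 0.32 (Mcm4) to 0.59 (Mcm3). Mcm6 shows the pattern: 9.82, 9.70 and 9.88 in wild-type Hras arrays, a difference of -0.03 ± 0.07, and 9.57, 9.47 and 9.48 in null Hras arrays, a rise of 0.38 ± 0.07 (adjusted p = 8.92e-05). Mcm6 in null Hras cells had thus come part of the way to the wild-type level. Gins1 rose in null cells (0.71 ± 0.10) and was 0.19 ± 0.10 in wild-type cells, without passing. Gins2 stayed at 9.21, 9.19 and 9.27 in wild-type and 9.27, 9.25 and 9.09 in null Hras arrays and passed in neither genotype.

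Of the 9 synthesis and nucleotide genes, Pole and Fen1 rose with Hras and DMSO in both genotypes, Pola1, Rfc4 and Rrm2 passed in null cells alone, and Pcna, Rfc3, Rrm1 and Tyms passed in neither. Pole rose in both genotypes, to 9.98, 10.09 and 10.20 in wild-type Hras arrays (0.38 ± 0.06) and 10.03, 9.85 and 9.81 in null ones (0.57 ± 0.06). Fen1 rose by 0.26 ± 0.08 and 0.48 ± 0.08. Pola1 was 0.02 ± 0.10 in wild-type and rose by 0.62 ± 0.10 in null cells, and Rfc4 was 0.08 ± 0.08 and rose by 0.46 ± 0.08. Rrm2 read 11.44, 11.48 and 11.60 in wild-type Hras arrays, overlapping the mock arrays (-0.03 ± 0.06), and 11.67, 11.54 and 11.55 in null Hras arrays, above all null mock arrays (0.32 ± 0.06). Tyms stayed between 9.96 and 10.28 in the 6 Hras arrays with DMSO.

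Mitotic members rose with Hras almost as a block. Aurka, the kinase of the spindle poles, read 9.50, 9.30 and 9.32 in wild-type mock and 9.88, 9.99 and 9.96 in wild-type Hras arrays with DMSO, and 9.24, 9.20 and 9.17 against 10.04, 9.99 and 9.94 in the null ones. No ranges overlapped, and the rises were 0.57 ± 0.06 (adjusted p = 6.69e-08) and 0.78 ± 0.06 (adjusted p = 4.23e-10). Aurkb reached 10.97, 11.00 and 11.12 in wild-type and 11.00, 11.00 and 10.84 in null Hras arrays, rises of 0.40 ± 0.06 and 0.72 ± 0.06. Cenpe reached 9.18, 9.18 and 9.41 in wild-type and 9.15, 9.22 and 9.08 in null Hras arrays, rises of 0.52 ± 0.10 and 0.72 ± 0.10. Cdk1 rose by 0.57 ± 0.06 and 0.63 ± 0.06, Plk1, a kinase of spindle assembly, by 0.49 ± 0.07 and 0.51 ± 0.07, and the checkpoint kinase Bub1 by 0.54 ± 0.08 and 0.78 ± 0.08. The exceptions were Mki67 and Ccnb2. Mki67 read 11.04, 11.07 and 11.19 in wild-type and 10.96, 10.92 and 10.88 in null Hras arrays, differences of -0.11 ± 0.07 and 0.06 ± 0.07. Ccnb2 read 11.16, 11.04 and 11.08 in wild-type mock and 11.19, 11.28 and 11.30 in wild-type Hras arrays (0.16 ± 0.07), without overlap but without passing.

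**Figure D4:**
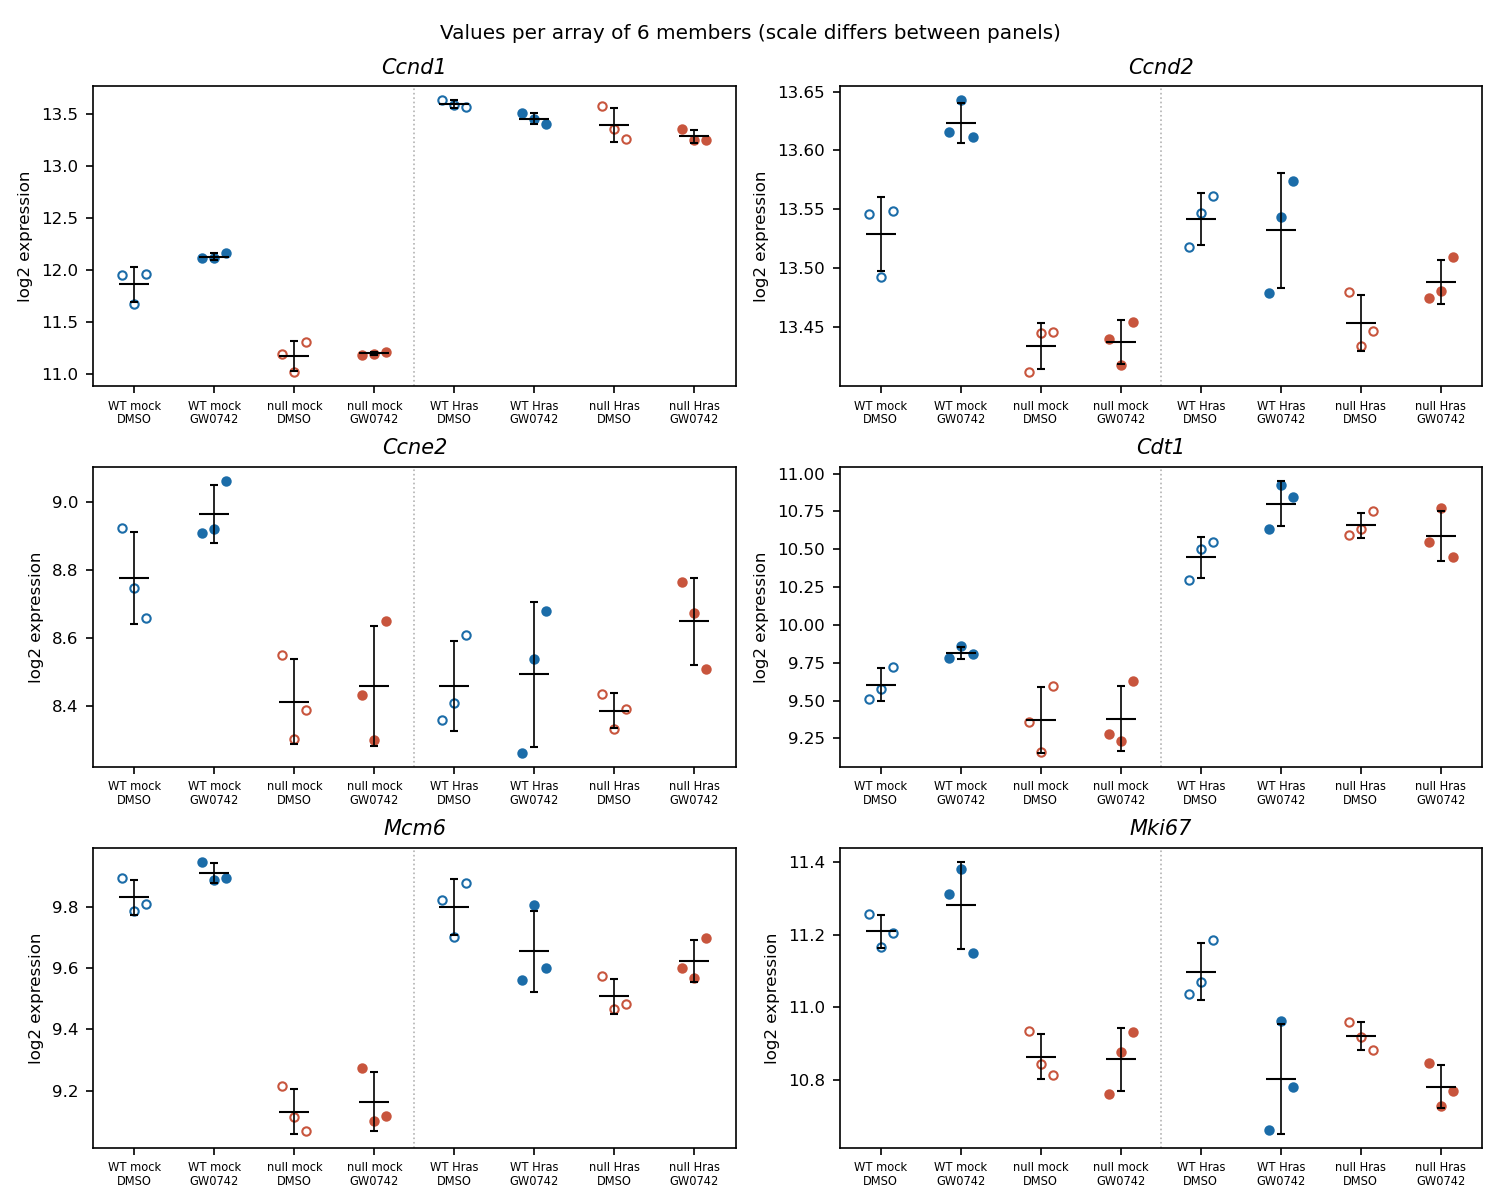
Log2 intensity (vertical axis, its own scale in each panel) of 6 members in each of the 24 arrays, by group (horizontal axis), with points for arrays, lines for group means and error bars for the SD. Ccnd1 and Cdt1 stand higher in every Hras array than in every mock array, and Ccnd2 stays between 13.41 and 13.64.

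Under GW0742, Hras went with mixed changes in wild-type cells and with rises in null cells. In wild-type cells 11 members rose and 5 fell (17.7% of all genes rose and 17.5% fell), and in null cells 28 rose and none fell (21% and 20.7%). The 5 falls are no larger a share of the members than of all genes. All 11 wild-type risers were among the 28 (39.3% of them). The medians were -0.04 for replication and 0.07 for mitotic members in wild-type cells, and 0.52 and 0.27 in null cells. The 5 that fell in wild-type cells were Mcm6 (-0.25 ± 0.07), Rrm1 (-0.32 ± 0.06), Rrm2 (-0.17 ± 0.06), Ccne2 (-0.47 ± 0.11) and Mki67 (-0.48 ± 0.07). Of the 16 wild-type calls, 10 held under every alternative, and 13 to 14 members passed with single arrays left out. Rrm2 was among those lost, for example with arrays centred (adjusted p = 0.0785). Mcm6 read 9.95, 9.89 and 9.89 in wild-type mock and 9.56, 9.81 and 9.60 in wild-type Hras arrays with GW0742, while Mcm7 (0.21 ± 0.06), Cdt1 (0.99 ± 0.11) and Gins1 (0.34 ± 0.10) of the same role rose. Mki67 read 11.31, 11.38 and 11.15 against 10.66, 10.96 and 10.78, with no overlap, and Ccne2 read 8.91, 8.92 and 9.06 against 8.26, 8.54 and 8.68. In null cells with GW0742, Mcm6 read 9.60, 9.57 and 9.70 with Hras, against 9.27, 9.10 and 9.12 without it. In these comparisons 7 of 7 fibroblast, 7 of 7 melanocyte, 5 of 7 basal and 5 of 7 differentiation markers fell in wild-type cells, and 5, 6, 4 and 5 fell in null cells. In wild-type cells 1 basal, 1 differentiation and 2 of 3 endothelial markers rose, and in null cells 1 fibroblast, 1 basal, 2 differentiation and 2 endothelial markers did. No leukocyte marker passed by limma in either genotype, and the part of these markers in the result was not tested.

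The difference between the 2 Hras effects was tested directly, as the null effect minus the wild-type effect. With DMSO it passed for 11 members, all with the larger rise in null cells (8.35% of all genes passed in that direction and 8.41% in the other). With GW0742 it passed for 25 members in that direction and none in the other (11.5% and 12.6% of all genes). By set, 9 of 19 replication and 1 of 15 mitotic members passed with DMSO, and 15 and 8 with GW0742. The largest with DMSO was Pola1 (0.61 ± 0.13, adjusted p = 0.00275), and the largest with GW0742 were Ccnd1 (0.76 ± 0.12, adjusted p = 4.44e-05) and Mcm6 (0.71 ± 0.10, adjusted p = 1.13e-05). Mcm2 was 0.45 ± 0.10 with DMSO and 0.70 ± 0.10 with GW0742. These differences use the same mock arrays as the genotype comparison, in which null cells started lower: the side by side values of Mcm2 are -0.27 (null minus wild-type) in mock and 0.18 in Hras cells with DMSO. The 11 and 25 genes are therefore not a result apart from the genotype difference in mock cells.

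GW0742 alone moved few members. In wild-type mock cells 1 of 39 passed, upward, where 1.25% of all genes rose and 1.61% fell. It was Cdc20, the activator of the ubiquitin ligase that ends mitosis. Cdc20 read 9.85, 9.87 and 9.88 with DMSO and 10.20, 10.26 and 10.15 with GW0742, without overlap, a rise of 0.34 ± 0.07 (adjusted p = 0.00565). Mitotic members had small positive differences (14 of 15 above 0, median 0.12), as did replication members (15 of 19, median 0.08), against a median of 0.00 over all genes, and none of the other 38 passed. In null mock cells no member passed by limma (0% of all genes did), 2 had an unadjusted p under 0.05, and the medians were -0.02 for replication and 0.00 for mitotic members. Cdc20 read 9.76, 9.78 and 9.87 against 9.78, 9.76 and 9.89 there, which overlap. The difference between genotypes in the ligand effect in mock cells passed for no member (by limma, 0.286% of all genes passed upward and 0.562% downward).

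In Hras cells GW0742 lowered a few mitotic members. In wild-type Hras cells 5 of 39 members fell and none rose, where 1.65% of all genes fell and 4.46% rose. They were Rrm1 (-0.20 ± 0.06), Mki67 (-0.29 ± 0.07), Top2a (-0.28 ± 0.07), Nusap1 (-0.33 ± 0.07) and Kif11 (-0.32 ± 0.07). Nusap1, which bundles spindle microtubules, read 9.83, 9.82 and 9.94 with DMSO and 9.45, 9.61 and 9.55 with GW0742, without overlap (adjusted p = 0.00488). Kif11 read 10.30, 10.21 and 10.40 against 9.87, 10.08 and 9.99, also without overlap (adjusted p = 0.00514), and Mki67 11.04, 11.07 and 11.19 against 10.66, 10.96 and 10.78 (adjusted p = 0.0133). With probe sets averaged, the Top2a difference was -0.15 and did not pass (adjusted p = 0.452). Of the 15 mitotic members 4 passed, and 13 differences were below 0, with Cdc20 (0.14) and Aurka (0.04) above it. The mitotic median was -0.17, against -0.05 for replication members and -0.01 for all genes. The replication levels of these arrays were 0.08, 0.11 and 0.19 with DMSO and 0.03, 0.16 and 0.08 with GW0742, which overlap. The mitotic levels were 0.23, 0.25 and 0.35 against 0.03, 0.20 and 0.10, which do not. Without wild-type Hras DMSO replicate 3 or GW0742 replicate 3 the count of 5 fell to 2, and a fit on these 6 arrays alone passed 1.

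In null Hras cells 5 members also fell with GW0742 and none rose (1.51% of all genes fell and 3.51% rose). They were Cdc20 (-0.35 ± 0.07), Nusap1 (-0.32 ± 0.07), Bub1b (-0.30 ± 0.06), Kif11 (-0.28 ± 0.07) and Aurka (-0.21 ± 0.06). Bub1b, a kinase-like subunit of the spindle checkpoint, read 9.37, 9.32 and 9.20 with DMSO and 9.07, 8.91 and 9.00 with GW0742, without overlap (adjusted p = 0.00563). Nusap1 read 9.77, 9.71 and 9.77 against 9.64, 9.30 and 9.36 (adjusted p = 0.00947), and Cdc20 10.19, 10.07 and 10.02 against 9.91, 9.73 and 9.58 (adjusted p = 0.00304). In all 3 the GW0742 arrays lay below the DMSO arrays, and replicate 1 was the highest of them. Of the 15 mitotic members, all 15 were below 0 (median -0.15), while 16 of 19 replication members were above it (median 0.08). Cdc6, with 0.18 ± 0.06, and Mcm7, with 0.17 ± 0.06, led the replication members after Pcna (0.22 ± 0.34), and no replication member passed. Nusap1 and Kif11 passed in both genotypes (40% of each set of 5), on arrays that the comparisons do not share. This rests on the group with the widest spread: the count of 5 ran from 1 to 9 as single arrays were left out (3 without DMSO replicate 1 or 2, and 9, 1 and 2 without GW0742 replicates 1, 2 and 3), and was 0 in a fit on these 6 arrays alone. With GW0742, 5 of 7 melanocyte and 3 of 7 differentiation markers rose in these null Hras cells (3 and 1 of the differentiation markers rose and fell in the wild-type ones), and their part in the result was not tested.

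Whether the ligand effect differed was tested as well. Between genotypes in Hras cells, only Cdc20 passed among members (1.21% of all genes passed in that direction and 0.517% in the other), at -0.50 ± 0.10 (adjusted p = 0.00659). It was 0.14 ± 0.07 in wild-type Hras cells, where it read 10.09, 10.15 and 10.18 with DMSO and 10.26, 10.37 and 10.23 with GW0742, and fell in null cells as given above. Bub1b, which passed in null Hras cells, differed in its ligand effect between genotypes by -0.14 ± 0.09, without passing, and read 9.31, 9.35 and 9.42 against 9.11, 9.30 and 9.18 in wild-type Hras arrays. Between Hras and mock wild-type cells the ligand effect passed for 4 members, all mitotic and all more negative with Hras (0.421% of all genes passed in that direction and 2.05% in the other). They were Top2a (-0.48 ± 0.09), Kif11 (-0.44 ± 0.10), Nusap1 (-0.42 ± 0.10) and Cdk1 (-0.31 ± 0.08). None of these 4 calls held in every alternative: the count was 1 without mock DMSO replicate 2 or mock GW0742 replicate 1, and 2 without mock DMSO replicate 3, Hras DMSO replicate 3 or Hras GW0742 replicate 1 or 3. With the 40% dimmest genes left out, with trend and robust moderation, or with arrays centred, Mcm4 and Ccnd1, which are not mitotic, passed as well, also more negative with Hras. Top2a was -0.43 with probe sets averaged and did not pass (adjusted p = 0.0957). In null cells that difference passed for no member by limma (1.39% of all genes passed upward and 0.231% downward, and the count was 6 without null Hras GW0742 replicate 1).

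**Figure D5:**
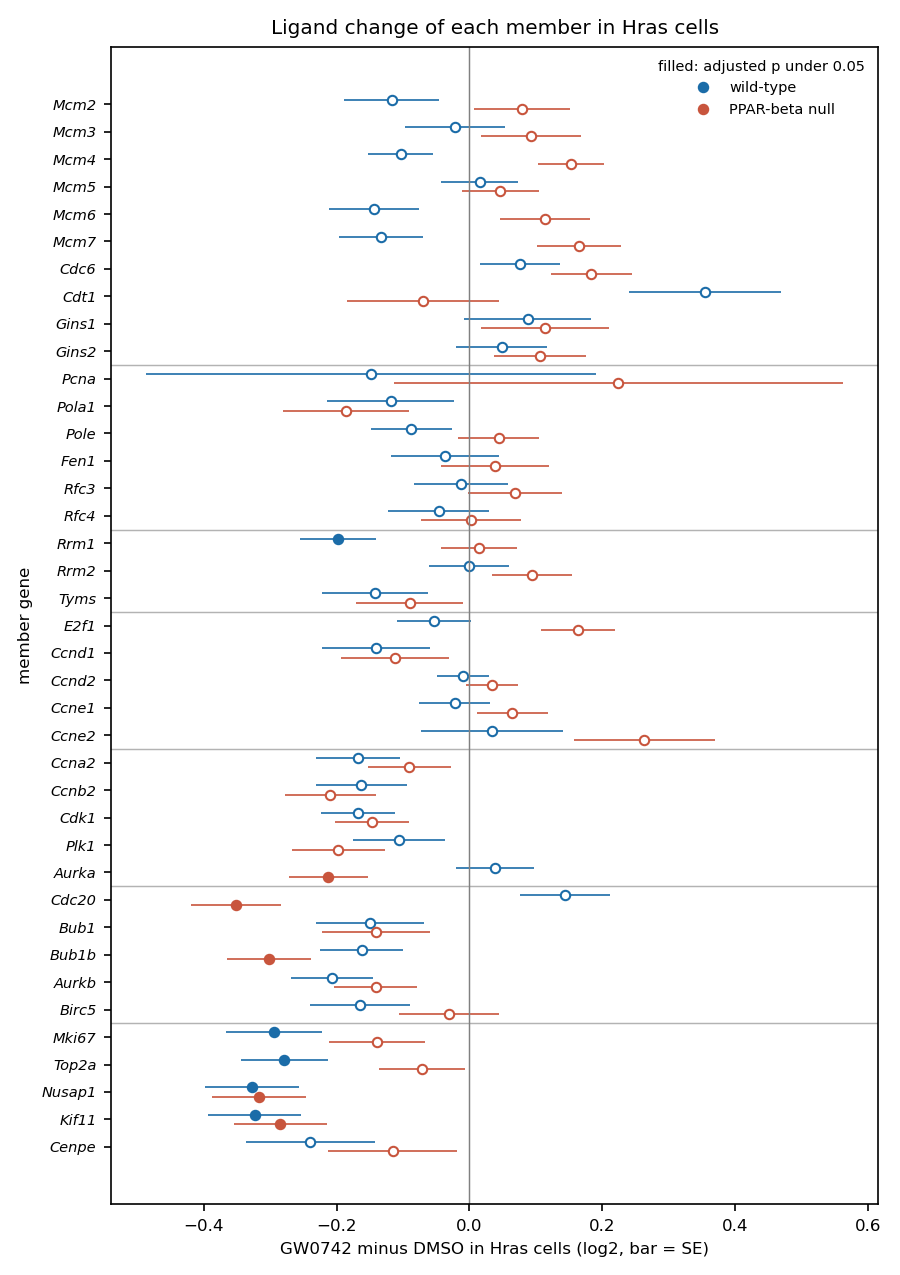
Change with GW0742 in Hras cells (log2, horizontal axis) of each of the 39 members (vertical axis, by role), in wild-type and in null cells, filled where the adjusted p was under 0.05, with bars for the SE. All 15 mitotic members lie left of 0 in null cells, where 16 of 19 replication members lie right of it.

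Replication and mitotic members were set against each other in each comparison by the difference of their medians (replication minus mitotic), as a description with no test. The Hras effect was higher in mitotic members in wild-type cells with DMSO (-0.31) and with GW0742 (-0.12) and in null cells with DMSO (-0.11), and higher in replication members in null cells with GW0742 (0.25). Without wild-type mock GW0742 replicate 3 the value of -0.12 was -0.05, and without null mock DMSO replicate 3 the value of -0.11 was -0.07. GW0742 in Hras cells gave 0.12 in wild-type and 0.23 in null cells, against -0.03 and -0.02 in mock cells, where leaving out single arrays gave -0.062 to -0.011 and -0.048 to 0.015 (above 0 without null DMSO replicate 3). The genotype difference in mock cells gave -0.06 with DMSO and -0.05 with GW0742. Leaving out single arrays gave -0.090 (without null replicate 3) to -0.029 (without wild-type replicate 3) with DMSO, and -0.080 (without wild-type replicate 2) to -0.017 (without wild-type replicate 3, and -0.018 without replicate 1) with GW0742. Of the members, 13 of 19 replication and 6 of 15 mitotic ones were lower with DMSO. Across the 24 arrays, pairs of replication members had a median Pearson r of 0.655, pairs of mitotic members 0.794, and pairs of one with the other 0.598, over arrays that share groups and treatment.

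Other cell cycle genes were read in 5 lists that hold no member. Of 29 other replication genes, 16 were lower in null mock cells with DMSO and 27 with GW0742, and none was higher. Of all genes, 5.53% and 10.9% were lower and 4.89% and 11.1% higher. Among the lower ones were Prim1, a primase subunit (-0.49 and -0.69), and Cdca7 (-0.46 and -0.58). With Hras and DMSO, 11 rose and 1 fell in wild-type cells (18.4% and 19% of all genes) and 23 rose in null cells (20.2% of all genes). Among the risers were Dbf4, the activator of the origin-firing kinase (0.82 and 0.88), and Tk1, a thymidine kinase (0.81 and 0.91). Of 30 other mitotic genes, 14 and 24 were lower in null mock cells and none higher, and 22 and 25 rose with Hras. The shares of all genes are those just given. Among the risers was Kif23, a motor of cytokinesis (1.12 and 0.91). With GW0742 in null Hras cells, 3 other replication genes rose (Cdca7, Mcm10 and Uhrf1, by 0.32, 0.27 and 0.23) and 5 other mitotic genes fell, led by Ect2, a cytokinesis factor (-0.30), and Tpx2, a spindle assembly factor (-0.30). Of all genes, 3.51% rose and 1.51% fell there. In wild-type Hras cells 3 other mitotic genes fell (Pbk, Anln and Ncapd2) and no other replication gene passed (1.65% of all genes fell and 4.46% rose).

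Regulators upstream were read in the other 3 lists. Of 13 G1 kinases, inhibitors and pocket proteins, 2 were higher and 2 lower in null mock cells with DMSO (4.89% and 5.53% of all genes). With GW0742 it was 3 and 4 (11.1% and 10.9%). With Hras and DMSO, 4 rose and 6 fell in wild-type cells (18.4% and 19% of all genes) and 4 rose and 7 fell in null cells (20.2% and 20.5%). The inhibitor Cdkn2b was higher in null than in wild-type mock cells (0.64 ± 0.11 with DMSO and 0.91 ± 0.11 with GW0742). With Hras and DMSO, Cdkn2b rose by 0.51 ± 0.11 in wild-type and fell by 0.37 in null cells, and the difference between these passed (-0.88 ± 0.15, adjusted p = 0.000282). Cdkn2a, a locus that encodes an inhibitor and a p53 activator, rose with Hras by 1.26 ± 0.10 in wild-type and 0.68 ± 0.10 in null cells. Rb1, the pocket protein that holds E2F, changed by -0.88 and -0.80, both passing. Cdkn2c, another inhibitor of the G1 kinases, was lower in null mock cells (-0.55 ± 0.11). Of 15 E2F, MYB and FOXM1 regulators, 5 and 9 were lower in null mock cells with DMSO and GW0742 (0 and 1 higher), where 5.53% and 10.9% of all genes were lower, led with DMSO by E2f8, a repressor E2F (-0.49 ± 0.07). In null Hras cells, GW0742 raised E2f8 (0.34 ± 0.07) and lowered Foxm1, the G2 activator (-0.25 ± 0.07), the only ones of the 15 to pass. Of all genes, 3.51% rose and 1.51% fell in that comparison. Of 9 p53 targets that restrain the cycle, 5 rose and 1 fell with Hras in wild-type and 6 rose and 1 fell in null cells with DMSO (shares of all genes as above), with Mdm2 at 0.71 and 0.86, and 1 was lower in null mock cells (Zmat3, -0.43).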

How the data were processed

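Total RNA of 24 samples in 8 groups of 3 was hybridised to one-colour Affymetrix Mouse Gene 1.0 ST arrays. The deposited values are log2 intensities that the authors made with RMA, per the submitters' processing notes; of the software version, build and library files, none is given by the labels or headers read here. RMA puts all arrays on 1 distribution, so a change shared by all genes would not show. The table holds 34760 probe sets, of which 21640 name 1 gene symbol, 1321 several and 11799 none in the platform annotation. Probe sets with several symbols or none were left out, and each of 19937 genes was read from its single-symbol probe set with the highest mean.

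The members, lists and comparisons were chosen with earlier results of these data known. All 24 arrays were fitted with 1 mean per group in limma 3.58.1 (R 4.3.3; 16 residual and 4.43 prior degrees of freedom), two-sided, with Benjamini-Hochberg adjustment over 19937 genes and a threshold of 0.05, in 12 comparisons and 6 differences of effects. Errors are standard errors of that fit. Values in every array were given for the members with the widest and the narrowest range of group means in each role, and for members passing against their role. They were also given for Pcna, for its spread, and for further members that passed with GW0742, all chosen after their values were seen. Non-members were named by the size of their change, at most 4 a list and comparison. In a simulation of the ligand effect in wild-type Hras cells, run on 19937 genes, the procedure recovered 87 to 94% of 100 genes changed 1.5-fold and 98 to 100% of 100 changed 2-fold over 5 draws, with 10 to 14 false calls of 198 to 204. The simulated noise was normal, with 1 SD per gene for all groups. The members that passed for this effect changed by less than 1.5-fold, so these figures do not tell how many changes of their size were missed. Replicate numbers were not used to pair the samples in the main fit, and whether they do so is not known. Over all genes, 12 of 84 same-numbered pairs of arrays from different groups correlated above 0.1. This check pools all pairs of groups, so it cannot exclude pairing within 1 kind of culture. Alternatives were array centring, a filter on dim genes, other moderation, only the arrays compared, a replicate block, averaged probe sets, and leaving out each array or the widest group. With 3 arrays a group, the number of arrays limits the precision. RefSeq promoter windows were searched with Python 3.11.15.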

Additional observations from a re-analysis of the deposited data

Results flagged for a closer look

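Effects that differed between groups by a test of the difference itself (limma, Benjamini-Hochberg adjusted p under 0.05 over 19937 genes) are listed here with that difference on the log2 scale. Single arrays were not flagged for standing apart from their group, since groups of 3 are too small for that. Counts with single arrays left out are given in the next section.

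The Hras effect with DMSO was larger in null than in wild-type cells for the replication members Pola1 (0.61), Gins1 (0.52), Mcm2 (0.45), Mcm6 (0.41), Rfc4 (0.38), Rrm2 (0.35), Mcm3 (0.34), Mcm5 (0.34) and Cdc6 (0.28). The same held for Ccnd1 (0.49) and, alone among mitotic members, Aurkb (0.33). These 11 differences use the mock arrays in which null cells were lower.

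With GW0742 the difference in the Hras effect passed for 25 members. The replication members were Mcm6 (0.71), Mcm2 (0.70), Pola1 (0.63), Cdc6 (0.61), Rrm2 (0.61), Gins1 (0.60), Mcm3 (0.58), Rfc4 (0.52), Mcm4 (0.51), Fen1 (0.50), Rfc3 (0.50), Mcm5 (0.48), Pole (0.43), Mcm7 (0.33) and Rrm1 (0.30). The cyclins Ccnd1 (0.76) and Ccne2 (0.66) passed as well. The mitotic members were Top2a (0.62), Kif11 (0.43), Aurkb (0.42), Mki67 (0.40), Cenpe (0.39), Birc5 (0.36), Ccna2 (0.35) and Cdk1 (0.27). Of the 15 replication members, 9 also passed with DMSO, and each had the larger rise in null cells.

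For Cdc20 the GW0742 effect in Hras cells was lower in the null genotype (-0.50). In wild-type cells it was lower with Hras than without for Top2a (-0.48), Kif11 (-0.44), Nusap1 (-0.42) and Cdk1 (-0.31).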

How the results depend on the processing

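Over 702 gene comparisons, 159 of the 211 calls held under every alternative run, and 1 of 10296 refits reversed (Top2a, null minus wild-type in mock DMSO cells, 0.014 with probe sets averaged). The Top2a probe set not used in the main fit thus differed upward there. Of the 5 calls for GW0742 in wild-type Hras cells 1 held throughout, and of the 5 in null Hras cells none did. Of the 22 calls for null minus wild-type in mock DMSO cells 11 held throughout, and of the 4 for the GW0742 difference with Hras in wild-type cells none did. With the 40% dimmest genes left out, the GW0742 counts became 2 in wild-type mock, 8 in wild-type Hras and 9 in null Hras cells, and the null minus wild-type count in Hras GW0742 cells 11. That filter gave 2, 8 and 2 for the differences of the GW0742 effect between genotypes in Hras cells, with Hras in wild-type, and with Hras in null cells. Trend and robust moderation gave 9 and 10 for null minus wild-type in Hras cells (DMSO and GW0742), and 3, 8 and 2 for those 3 differences. Only the arrays compared gave 2, 1 and 0 for GW0742 in wild-type mock, wild-type Hras and null Hras cells, 3 and 2 for null minus wild-type in Hras cells, and 1 and 0 for the GW0742 difference between genotypes in mock and Hras cells. The mock difference was also 1 with probe sets averaged and 1 without the null Hras GW0742 group, and centring gave 7 for the wild-type difference with Hras. Apart from the smaller sets of genes or arrays fitted, the cause was not tested. Leaving out single arrays gave 2 to 6 and 1 to 9 for GW0742 in wild-type and null Hras cells, 12 to 23 for null minus wild-type in mock DMSO cells, and 3 to 8 and 3 to 10 for it in Hras cells. It gave 1 to 2 for the genotype difference of GW0742 in Hras cells, 1 to 6 for its difference with Hras in wild-type (1 or 2 without any of 6 arrays) and 0 to 6 in null cells. The replication minus mitotic difference of medians ran, with single arrays left out, from 0.107 to 0.145 and 0.207 to 0.300 for GW0742 in wild-type and null Hras cells, -0.321 to -0.282 and -0.151 to -0.0453 for the Hras effect in wild-type cells (DMSO and GW0742), and 0.0771 to 0.139 and 0.0982 to 0.185 for null minus wild-type in Hras cells. With the replicate block, null minus wild-type passed 21 (DMSO) and 32 (GW0742) in mock cells. The Hras effect passed 22 and 28 (DMSO, wild-type and null), and no count moved by over 1.5 times. Same-numbered samples had a median r of 0.0151 (lowest -0.287), and 12 of 24 arrays were closest to their own number. Whether the numbers pair the samples is therefore not settled. Array signal over background is not in these values, so what dim signal limits is not known.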

Other observations

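Pcna, the sliding clamp, spread far more between arrays than its partners: 11.95, 10.73 and 12.13 in null mock arrays with GW0742 and 11.71, 11.65 and 12.72 in wild-type Hras arrays with GW0742, against 8.92, 8.82 and 8.82 against 9.02, 9.20 and 8.99 for Rfc3 in the same arrays. Its low values lay in different groups, many of them in replicate 2. That replicate read 11.03 and 10.73 in null mock cells with DMSO and GW0742. It read 11.55 in wild-type mock and 11.65 in wild-type Hras cells with GW0742, and 12.13 to 12.38 in the other groups. Pcna passed in no comparison. All its values here are from the brighter of its 2 probe sets, so the spread may be that of the probe set rather than the gene. Of the licensing genes Cdt1 had the widest range of group means, while Gins2 had the narrowest beside its partner Gins1, which was 0.95 ± 0.10 with Hras in null cells under GW0742 against 0.03 ± 0.07 for Gins2.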
